A study of Rattus norvegicus with 3 samples.

Results

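The genes described here are 83 of the 15155 named rat genes with a value on all 3 arrays: those of the mitochondrial respiratory chain and the ATP synthase. They were chosen by symbol alone, as the RefSeq genes whose symbol begins with Nduf, Uqcr, Atp5 or Cox4 to Cox8, together with Sdha, Sdhb, Sdhc, Sdhd and Cycs. They comprise 37 genes of complex I, 4 of complex II, 8 of complex III, the gene of cytochrome c, 18 of complex IV and 15 of complex V. Each gene was found through the RefSeq accession of its probe and is represented by its brightest probe. Of 120 protein-coding symbols that fit the rule in the RefSeq table of assembly GRCr8, 82 were found, and Cox6c-ps1, listed there as a pseudogene, is the remaining gene. The other 38, which include Cyc1, Cox7a1, Ndufa4l2, Atp5mc3 and Ndufs6, were matched to no probe and are not analysed here. The subunits that mitochondrial DNA encodes carry other symbols and lie outside the rule. Of the 83 genes, 82 gave signal well above background on each of the 3 arrays. Cox8c, the testis isoform of a small complex IV subunit, was not well above background on any array and is given no fold.

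The cells were cultured ventricular cardiomyocytes of neonatal rats, and the study asked how 11β-HSD1, which converts inactive glucocorticoid back to its active form inside cells, acts on hypertrophy. The control group received the empty vector, the HSD1 group the expression vector for 11β-HSD1, and the HSD1+BVT group that same vector together with BVT.2733, an inhibitor of the enzyme. All groups were therefore transfected, and the promoter of the vector, the share of cells that took it up, the dose, the exposure time and the number of cultures are not stated in the labels. RNA from 1 pool of cells per group was labelled with Cy3 and read on 1 array per group, so every difference below compares 2 arrays of pooled cells, no test was possible and no p-value is given. The 3 comparisons share arrays pairwise, and their values stand side by side without being evidence for each other. The control and HSD1 arrays were in scan 1 and the HSD1+BVT array alone in scan 2, so inhibitor and scan cannot be told apart.

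The percentile 75 of the processed signal ranged from 1169 to 1549 over the 3 arrays, between 81.2% and 82.5% of spots were well above background, and no spot was saturated. Levels are log2 of the processed signal relative to the percentile 75 of the same array, so that a level of 0 marks that percentile. Over 1349 probes printed 10 times, a ratio of single spots had a median technical SD of 0.071 for HSD1 against control, 0.069 for HSD1+BVT against HSD1 and 0.067 for HSD1+BVT against control (log2). Hsd11b1, the gene of the vector, stood at log2 levels of 3.39 (control), 3.86 (HSD1) and 3.76 (HSD1+BVT). All 10 cardiomyocyte markers, 8 of 8 fibroblast markers and 6 of 6 smooth muscle and pericyte markers gave signal well above background on every array, so transcripts that mark other cell types were present beside those of cardiomyocytes. In such pools, fewer cells of a type and less RNA per cell cannot be told apart.

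Complex I passes electrons from NADH, and complex II those from succinate, to coenzyme Q; complex III hands them to cytochrome c, and complex IV to oxygen. Complexes I, III and IV pump protons out of the matrix, and complex V, the ATP synthase, lets them return to make ATP. Cardiac muscle has dense mitochondria and depends on this route for most of its ATP, and several complex IV subunits have separate isoforms in heart and muscle.

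Transcripts of the respiratory chain and the ATP synthase differed little between the 3 arrays. None of the 82 measured genes reached 2-fold in any comparison. The background was 1.33% of 11871 genes higher and 0.548% lower in HSD1 against control. It was 1.49% of 11701 higher and 0.581% lower in HSD1+BVT against HSD1, and 2.94% of 11718 higher and 0.751% lower in HSD1+BVT against control. Of the 3454 genes with a mean level at or above percentile 75, 28 were higher and 11 lower in HSD1 against control. In HSD1+BVT against HSD1 these counts were 25 and 1, and in HSD1+BVT against control 36 and 5. At such shares few of 82 genes would be called, so the absence of calls alone says little about the group. The median gene of the group spanned 0.16 between its lowest and highest array (log2), against 0.29 over 11597 genes measured on all arrays and 0.20 over the 3454 of these with a mean level at or above percentile 75. Ndufa9, a complex I subunit that helps to hold the peripheral arm to the membrane arm, varied least, with a span of 0.02. Cox4i2, an isoform of a regulatory complex IV subunit, varied most, with a span of 0.93.

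With the vector, the median log2 ratio of the 82 genes was 0.06 (SD over genes 0.12), and over all genes it was likewise 0.06 (SD 0.34). Of the 82, 55 had a ratio above 0, or 67.1%, against a background of 59.2%. The lowest ratio belonged to Ndufaf1, at -0.22, and the highest to Uqcrq, at 0.36. With the inhibitor on top of the vector, the median was 0.01 (SD 0.15), as over all genes (0.01, SD 0.36), and 46 of 82 ratios were above 0, or 56.1%, against a background of 51.2%. They ran from -0.26 for Atp5mc1 to 0.75 for Cox4i2. In HSD1+BVT against control the median was 0.07 (SD 0.16) beside 0.05 over all genes (SD 0.42), and 61 of 82 ratios were above 0, or 74.4%, against a background of 58.2%. The range was -0.22 for Atp5mc1 to 0.93 for Cox4i2.

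These medians sit close to 0 on a scale that the choice of normalization moves: under quantile normalization the median of all genes in the last comparison was -0.04 and that of the 82 genes was -0.03. The counts above 0 move with it: in the order of comparisons above they were 55, 46 and 61 of 82 as reported, 44, 33 and 36 under quantile normalization, 48, 33 and 37 under cyclic loess, 46, 37 and 40 under normexp and 44, 33 and 35 in the authors' deposited table. No common direction of the 82 genes can therefore be given with the inhibitor. The spread of the 82 genes was narrower than over all genes or over genes at or above percentile 75, but neither set was matched to them in brightness. Control-array medians of complexes I to V ran from 2.87 to 4.55, far above the level of 0 that marks percentile 75. For HSD1 against control the technical SD was 0.071 over 1349 probes and 0.059 over the 495 above percentile 75. The part of brightness in the narrow spread was not tested. A difference of 1.2-fold in either direction was reached by 2 of the 82 genes in HSD1 against control (2.44%, against 31.7% of all genes and 18.8% of genes at or above percentile 75). It was reached by 4 of 82 in HSD1+BVT against HSD1 (4.88%, against 34.0% and 20.6%) and by 4 of 82 in HSD1+BVT against control (4.88%, against 38.6% and 21.4%). These 1.2-fold counts are for the reported scaling and were not repeated under the others. At 1.5-fold no gene was called in HSD1 against control, where the background was 5.59% higher and 2.35% lower. Cox4i2 alone was called in HSD1+BVT against HSD1, as higher (background 5.35% higher and 3.71% lower), and in HSD1+BVT against control, also as higher (background 9.96% higher and 3.64% lower).

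**Figure D1:**
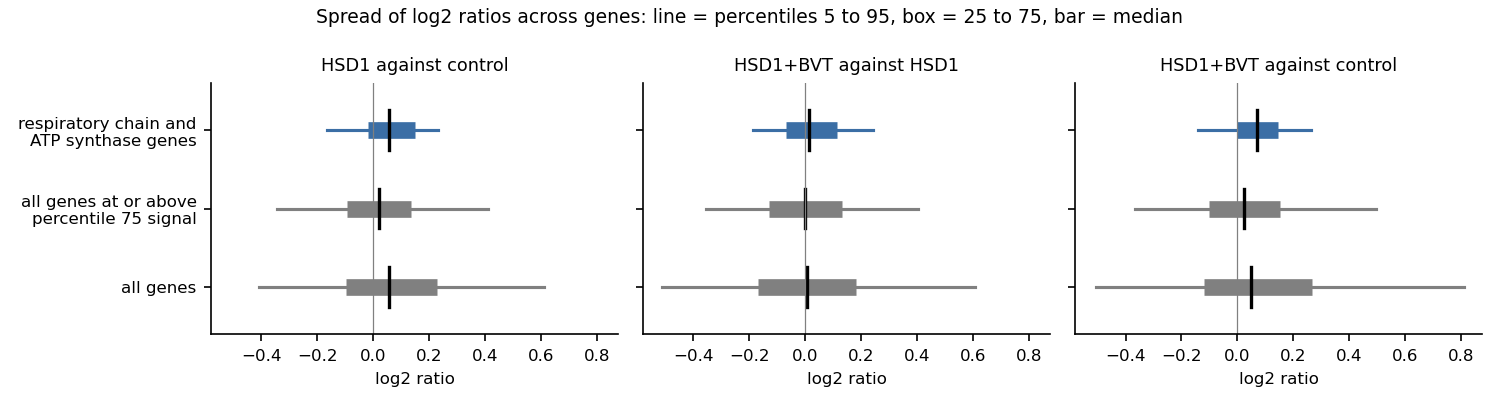
Spread of log2 ratios across genes in the 3 comparisons, for the 82 measured respiratory chain and ATP synthase genes (blue), for the 3454 genes with a mean level at or above percentile 75 and for all genes measured on both arrays. Thin lines run from percentile 5 to 95 of the genes, boxes from 25 to 75, and black bars mark medians; the blue boxes and lines are the narrowest in every panel, and every median is at most 0.07 from 0.

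**Figure D2:**
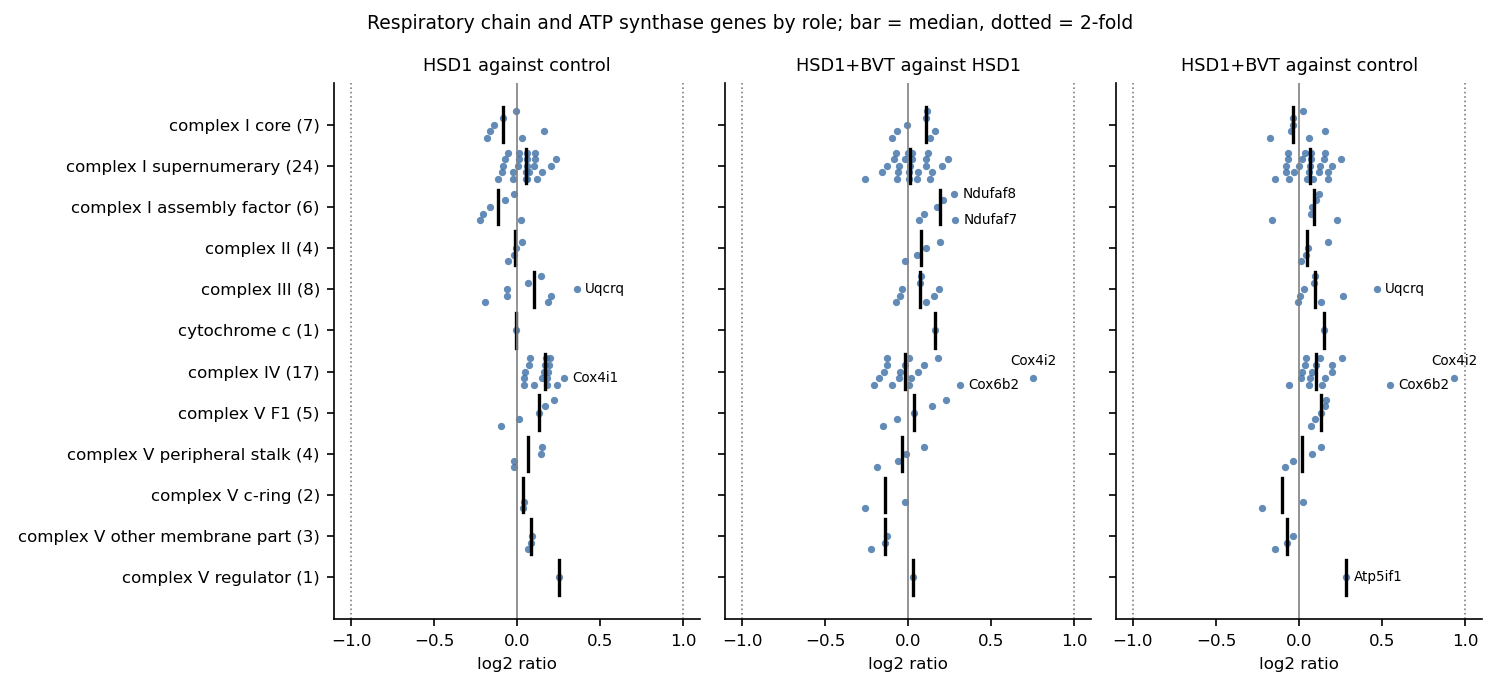
Log2 ratio of each of the 82 measured genes (points) by role, with the number of genes in brackets and black bars at medians; dotted lines mark 2-fold and genes at least 1.2-fold higher are named. All points lie inside the dotted lines, all 17 complex IV points of the first panel lie to the right of 0 (14 to 17 over the scalings), and Cox4i2 stands apart in the panels that hold HSD1+BVT.

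Promoter sequences were read for 73 of the 83 genes from the RefSeq table (GRCr8, 250 bases before the start of the gene). They show upstream letters that the choice by symbol did not use. The ETS motif CCGGAAGT, which GABP reads, was present in 7 of 73 (9.59%, against 3.10% of 33469 promoters of all genes), and AAGGTCA, the half-site of estrogen-related receptors, in 6 (8.22%, against 3.99%). AAGATGGC, a YY1 motif, was found in 2 (2.74%, against 1.63%) and ACGTG, the core of the hypoxia response element, in 16 (21.9%, against 16.6%). Each motif was searched on both strands. The 33469 promoters are every entry of that table. They are not limited to the 15155 genes with a value on the arrays and were not matched to the group in expression, so an excess cannot be called particular to it. A match describes letters and not a bound site, and no match says only that these letters are not in this window.

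The promoters of 3 genes are printed because the results return to them: Uqcrq had the highest ratio with the vector, Cox4i1 the highest of complex IV, and Atp5mc1 the lowest ratio with the inhibitor. Capitals mark the motifs searched. Uqcrq (chr10:38089979-38090228, minus strand) has AAGGTCA, CCGGAAGT and ACGTG. Cox4i1 (chr19:65630133-65630382, plus strand) has ACGTG once, and Atp5mc1 (chr10:81523346-81523595, minus strand) has it at 3 places, a pair of them overlapping on opposite strands.
Uqcrq: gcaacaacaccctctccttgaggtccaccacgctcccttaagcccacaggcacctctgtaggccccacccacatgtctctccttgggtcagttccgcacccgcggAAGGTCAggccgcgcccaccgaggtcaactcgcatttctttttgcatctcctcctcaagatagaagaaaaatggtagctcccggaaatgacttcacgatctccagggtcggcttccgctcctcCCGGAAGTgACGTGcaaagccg
Cox4i1: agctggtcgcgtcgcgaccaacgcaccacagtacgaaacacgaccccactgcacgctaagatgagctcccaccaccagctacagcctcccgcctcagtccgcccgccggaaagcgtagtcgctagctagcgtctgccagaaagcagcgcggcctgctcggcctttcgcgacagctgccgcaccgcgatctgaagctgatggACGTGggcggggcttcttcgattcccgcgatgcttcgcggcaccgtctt
Atp5mc1: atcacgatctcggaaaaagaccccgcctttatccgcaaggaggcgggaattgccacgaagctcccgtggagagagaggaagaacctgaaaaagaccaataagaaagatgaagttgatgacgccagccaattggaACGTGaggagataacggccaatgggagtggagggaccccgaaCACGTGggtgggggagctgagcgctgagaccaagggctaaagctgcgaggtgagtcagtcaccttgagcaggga
Median log2 ratios of genes with a motif are given beside those of the other genes that have a promoter entry, in the order HSD1 against control, HSD1+BVT against HSD1 and HSD1+BVT against control. The 7 genes with the ETS motif had medians of 0.18, 0.03 and 0.16, and the others 0.04, 0.02 and 0.07. The 6 genes with the ERR half-site had 0.13, 0.04 and 0.17, beside 0.04, 0.02 and 0.07. The 16 genes with the hypoxia core had 0.07, 0.01 and 0.09, beside 0.04, 0.03 and 0.06. The 2 genes with the YY1 motif had 0.12, -0.07 and 0.05, beside 0.05, 0.03 and 0.07. Genes with several motifs count under each, and no test was made.

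The 7 core subunits of complex I that are nuclear-encoded carry its flavin and iron-sulphur clusters. Their median log2 ratio was -0.09 in HSD1 against control, with 5 of 7 below 0, then 0.10 in HSD1+BVT against HSD1 and -0.03 in HSD1+BVT against control. Under quantile normalization the median for HSD1+BVT against HSD1 was -0.01, so no direction can be given there. Ndufs1, the largest iron-sulphur subunit, had levels of 2.87 (control), 2.69 (HSD1) and 2.82 (HSD1+BVT). It was lowest on the HSD1 array, by 0.18 against control. Ndufs8, another iron-sulphur subunit, had levels of -1.24, -1.40 and -1.41 in the same order, so that both arrays with the vector were below control, by 0.17 each. Ndufv1, which binds NADH, had levels of 3.24, 3.41 and 3.31. It was the core subunit with the highest ratio in HSD1 against control, 0.16. None of the 7 core subunits was more than 0.18 from its control level on either other array.

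The 24 supernumerary subunits surround that core and serve its assembly and stability. Their medians were 0.06, 0.01 and 0.06 in the order of comparisons used above, with 17, 14 and 16 of 24 ratios above 0. Under quantile normalization the medians were 0.02, -0.05 and -0.03, with 14, 9 and 10 of 24 above 0, so the direction with the inhibitor depends on the scaling. Ndufa2, a small subunit of the NADH-oxidising module, had levels of -0.22 (control), 0.01 (HSD1) and -0.15 (HSD1+BVT), and its 0.23 was the highest complex I ratio with the vector. Ndufa11, a membrane-arm subunit, had levels of -0.81, -0.61 and -0.87, so that HSD1 was the highest array and HSD1+BVT was 0.26 below it. Ndufa10, a membrane-arm subunit with the fold of a nucleoside kinase, went the other way, with levels of 2.05, 1.95 and 2.20. HSD1+BVT was its highest array, by 0.24 over HSD1. Its paralogue Ndufa10l1 had levels of 1.53, 1.44 and 1.45 and differed by 0.01 between these arrays. Ndufb9, a subunit of the LYR family, stood at 4.87, 5.02 and 5.12, the highest complex I ratio of HSD1+BVT against control at 0.25. Ndufb7, an intermembrane-space subunit, stood at 1.97, 1.90 and 1.83, or -0.15 in that comparison. None of the 24 supernumerary subunits reached 1.2-fold as reported. Under quantile normalization Ndufa11 did, at -0.28 in HSD1+BVT against HSD1.

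The 6 assembly factors whose symbols begin with Ndufaf build complex I without being part of it. Of these, 5 had ratios below 0 in HSD1 against control (median -0.12), and 6 of 6 were above 0 in HSD1+BVT against HSD1 (median 0.19). Both comparisons share the HSD1 array, and against control HSD1+BVT had a median of 0.09. Ndufaf1, an early factor for the membrane arm, had levels of -1.83 (control), -2.06 (HSD1) and -1.99 (HSD1+BVT). Ndufaf7, an arginine methyltransferase, had levels of -1.70, -1.86 and -1.58. Ndufaf8, the partner protein of Ndufaf5, had levels of 1.88, 1.68 and 1.95, so for all of these the HSD1 array was the lowest. The values of Ndufaf7 depend on the probe: its other probe gave 0.11 in place of -0.16 for HSD1 against control and 0.36 in place of 0.28 for HSD1+BVT against HSD1. Ndufaf4, with levels of 1.52, 1.54 and 1.75, was the factor with a ratio above 0 in HSD1 against control (0.02), and its other 3 probes gave -0.14, -0.13 and -0.07.

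Complex II is both a citrate cycle enzyme and an entry to the chain. Its 4 subunits had median log2 ratios of -0.01, 0.08 and 0.05. Under quantile normalization they were -0.05, 0.0023 and -0.06, and under normexp -0.05, -0.02 and -0.07, so no direction can be given with the inhibitor. Sdha, the flavoprotein, stood at 3.31 (control), 3.26 (HSD1) and 3.37 (HSD1+BVT). Sdhb, the iron-sulphur subunit, stood at 2.90, 2.93 and 2.90, the narrowest of the complex. The membrane anchor Sdhd had levels of 3.83, 3.81 and 4.004. It was higher in HSD1+BVT than in HSD1 by 0.19 ± 0.017 (SE between 10 spots per array, an error of the array reading alone).

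In complex III the 8 genes had medians of 0.10, 0.07 and 0.09, and of 0.04, -0.00035 and -0.0048 under quantile normalization. Uqcrq, the small subunit next to the coenzyme Q site, had levels of 1.03 (control), 1.39 (HSD1) and 1.496 (HSD1+BVT). Both arrays with the vector were above control, HSD1 by 1.28-fold and HSD1+BVT by 1.38-fold. Of all genes, 85.8% had a lower ratio than Uqcrq in the former comparison and 85.7% in the latter. Uqcrh, the hinge protein that assists the docking of cytochrome c, stood at 4.03, 4.21 and 4.29, again with control lowest. The core protein Uqcrc2 had levels of 3.18, 2.98 and 3.17, lowest in HSD1 by 0.20 against control. Uqcr11, another small subunit, stood at 2.67, 2.88 and 2.805, and its other probes gave 0.14 and -0.0027 in place of 0.20 for HSD1 against control. Small subunits lay above 0 and core proteins below it in that comparison (5 of 8 genes above 0, and 4 of 8 under quantile normalization), with Uqcrc1, the second core protein, at -0.06 and Uqcrfs1, the Rieske iron-sulphur protein, at -0.06. Cycs, which encodes the cytochrome c that carries electrons on to complex IV, had levels of 4.59, 4.58 and 4.74. Control and HSD1 hardly differed, and HSD1+BVT was 0.16 above HSD1 (0.26 by its other probe).

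Complex IV was the complex with the highest median in HSD1 against control, 0.17, beside 0.06 for the 82 genes together and 0.02 for all genes at or above percentile 75. All 17 measured genes had a ratio above 0, from 0.04 for Cox6c-ps1 to 0.28 for Cox4i1. The count depends on the scaling: 14 of 17 were above 0 when arrays were aligned on their medians, and 16 of 17 under quantile, cyclic loess and both normexp settings and in the authors' deposited table. The median was 0.11 to 0.12 under those settings, and its distance above the median of the 82 genes was 0.11 as reported. The summed level of the cardiomyocyte markers moved the same way, from 349 times the percentile 75 signal in control to 390 in HSD1 and 391 in HSD1+BVT. That sum rests on the brightest probes: 8 of the 10 markers were above 0 in HSD1 against control (median 0.14), with Tnnt2 highest at 0.25 and Myl2 lowest at -0.45. All 5 measured endothelial markers were also above 0 there (median 0.80). The part of either in the complex IV values was not tested. With the inhibitor the complex IV median was -0.02 against HSD1, with 8 of 17 above 0, and 0.10 against control, with 16 of 17 above 0. Against HSD1 the median was -0.07, with 5 of 17 above 0, under quantile normalization and in the authors' deposited table. It was -0.06 with 4 of 17 under cyclic loess, and 0.0019 with 9 of 17 for the mean of all probes. Against control it was -0.01, with 8 of 17 above 0, under quantile normalization and in the deposited table.

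Cox4i1, the ubiquitous isoform of subunit 4, had levels of 4.29 (control), 4.58 (HSD1) and 4.37 (HSD1+BVT). It was highest in HSD1, 1.22-fold above control, and HSD1+BVT was 0.20 below HSD1 on the log2 scale. Its ratio in HSD1+BVT against control was 0.08, and -0.04 in the authors' deposited table, so that no direction can be given there. Cox4i2, the isoform of that subunit known for its high level in lung and its response to oxygen, had levels of 0.77, 0.95 and 1.70. HSD1+BVT stood apart, 1.68-fold above HSD1 and 1.91-fold above control, while HSD1 was 1.13-fold above control. Of all genes, 96.9% had a lower ratio in HSD1+BVT against HSD1 and 96.5% in HSD1+BVT against control. Over the alternative settings the log2 ratio against HSD1 ran from 0.57 to 0.75 and that against control from 0.75 to 0.93. The ratio of Cox4i2 to Cox4i1, which no scaling of an array by a constant can move, changed by 0.96 between HSD1 and HSD1+BVT and by -0.10 between control and HSD1. Cox4i2 rests on 1 probe and 1 spot per array.

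Cox4i2 is also known as a gene of pericytes and smooth muscle cells, and the values of those markers are given here. All 6 had ratios below 0 in HSD1+BVT against HSD1 and against control (medians -0.49 and -0.26), and their summed level was 41.4, 46.4 and 34.0 times the percentile 75 signal in control, HSD1 and HSD1+BVT. Rgs5, a marker of pericytes, had levels of -4.58 (control), -4.88 (HSD1) and -5.98 (HSD1+BVT). The part of these cell types in the Cox4i2 values was not tested.

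The ratios of the other isoform pairs of complex IV changed less than that of Cox4i2 to Cox4i1 in both comparisons with HSD1+BVT. Between control and HSD1, the ratio of Cox6b2 to Cox6b1 changed by 0.20 and so by more. Cox6b2, the testis isoform of subunit 6B, had levels of 0.23 (control), 0.47 (HSD1) and 0.78 (HSD1+BVT). Control was lowest, and HSD1+BVT was 1.46-fold above it. Its partner Cox6b1 had levels of 0.49, 0.53 and 0.55, and its other probes gave 0.07 and 0.29 in place of 0.06 for HSD1+BVT against control. The muscle isoform Cox6a2 had levels of 5.13, 5.29 and 5.16 and the ubiquitous Cox6a1 had 5.51, 5.69 and 5.64. Between control and HSD1 the ratio of the pair changed by -0.01. The muscle isoform Cox8b (1.81, 1.998 and 1.94) and the ubiquitous Cox8a (4.16, 4.36 and 4.36) likewise kept their ratio, with a change of -0.01. In both pairs HSD1 was above control for heart and ubiquitous isoform alike, by 0.17 to 0.19. Cox7a2, the non-muscle isoform of subunit 7A, had levels of 4.25, 4.43 and 4.25, with HSD1 highest. Cox7a2l, which joins complexes III and IV into supercomplexes, had levels of 3.84, 3.92 and 4.10 and was highest in HSD1+BVT. Ndufa4, counted here with complex IV, of which it is a subunit, had levels of 5.05, 5.22 and 5.12, highest in HSD1.

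**Figure D3:**
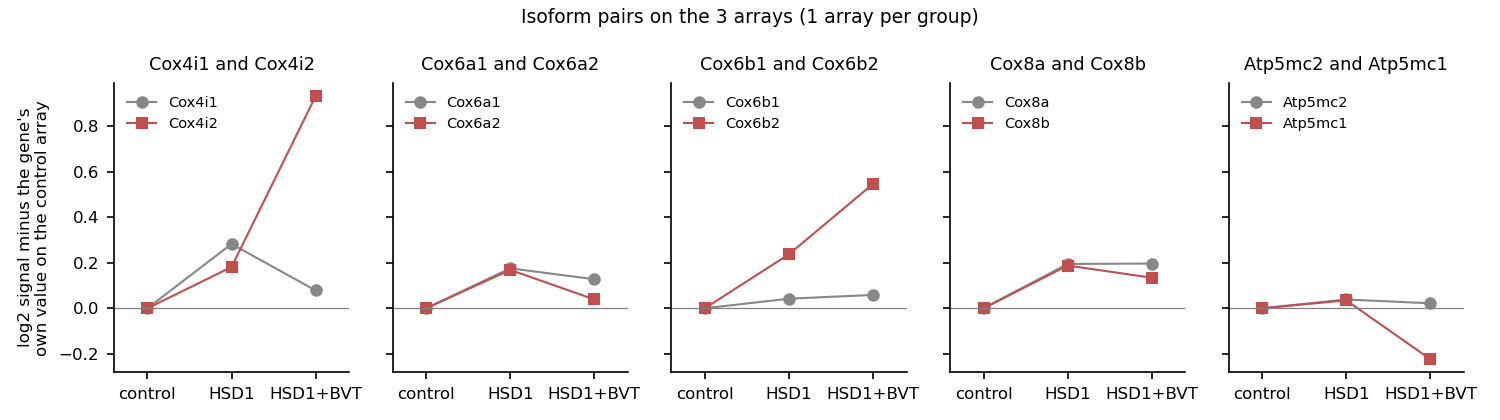
Isoform pairs on the 3 arrays, each gene as its log2 level minus its own level on the control array; points are single arrays and carry no error bar. Cox4i2 reaches 0.93 on the HSD1+BVT array while Cox4i1 is at 0.08 there, Cox6b2 reaches 0.55, and the pairs of Cox6a and Cox8 run close together.

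Of complex V, the 5 genes of the catalytic F1 part had medians of 0.13, 0.03 and 0.13. They were 0.06, -0.04 and 0.02 under quantile normalization and 0.0066, -0.03 and 0.05 under normexp. Atp5f1a and Atp5f1b encode its α and β subunits, with levels of 5.65, 5.78 and 5.82 and of 3.78, 3.79 and 3.93. Both were highest in HSD1+BVT, by 0.16 and 0.15 over control. Atp5f1c, the γ subunit that turns inside the catalytic ring, had levels of 2.35, 2.25 and 2.48, lowest in HSD1. Atp5f1e, the small ε subunit, went the other way with 5.07, 5.29 and 5.14, so the F1 genes did not share a direction between HSD1 and HSD1+BVT. The 4 genes of the peripheral stalk, which holds the catalytic part still, had medians of 0.06, -0.04 and 0.02, and of 0.01, -0.12 and -0.11 under quantile normalization. Atp5po, the subunit that joins the stalk to the catalytic part, had levels of 4.96, 5.11 and 4.93, highest in HSD1 and 0.19 lower with the inhibitor. Atp5pd stood at 4.40, 4.38 and 4.32, lowest in HSD1+BVT.

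Genes of the membrane part of complex V had lower levels in HSD1+BVT than in HSD1, none by 1.2-fold (0.263 in log2) as reported. Other settings passed 1.2-fold: Atp5mc1 was -0.345 under quantile normalization and Atp5mk -0.31 in the authors' deposited table. Atp5mc1, one of several genes for subunit c of the rotor ring, had levels of 4.09 (control), 4.13 (HSD1) and 3.87 (HSD1+BVT). HSD1+BVT was lowest, 1.197-fold below HSD1 and 1.17-fold below control. Atp5mc2, which encodes the same subunit c, had levels of 4.84, 4.88 and 4.87, and the ratio of Atp5mc1 to it changed by -0.24 between HSD1 and HSD1+BVT. The other probe of Atp5mc2 gave -0.20 in place of -0.02 for that comparison. The other 3 membrane genes, Atp5me, Atp5mg and Atp5mk, had ratios of -0.13, -0.14 and -0.23 in HSD1+BVT against HSD1 and between -0.14 and -0.04 against control. Under the 2 normexp settings Atp5me was -0.306 and -0.305 in HSD1+BVT against control, past 1.2-fold and the lowest of the 82 genes there. Atp5if1, the inhibitor that stops complex V from running backwards, had levels of 4.09, 4.35 and 4.38. Both arrays with the vector were above control, by 1.19-fold and 1.22-fold.

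Many of these small differences were larger than the spread between spots, while the spread between cultures is unknown. For 13 of the genes the probe is printed 10 times, and the SE of a ratio between spots was 0.0089 to 0.031 over the 3 comparisons. The ratio was more than 2 such SE from 0 for 9 of 13 genes in HSD1 against control, 10 of 13 in HSD1+BVT against HSD1 and 10 of 13 in HSD1+BVT against control. These counts are for the reported scaling alone. Cox8a, for example, was 0.19 ± 0.021 in HSD1 against control, and Cox7b, another small complex IV subunit, 0.15 ± 0.025. Ndufv2, an iron-sulphur core subunit of complex I, was -0.14 ± 0.021. Other complex I genes lay above 0 in that comparison, with Ndufb9 at 0.15 ± 0.0099, Ndufb8 at 0.07 ± 0.022, Ndufa6 at 0.06 ± 0.0089 and Ndufb5 at 0.06 ± 0.014. As reported, complex I thus had members on both sides of 0 beyond the spread between spots. The SE leaves out the choice of scaling. Scaling on array medians lowered the median of all genes there from 0.056 to 0.0068 and moves every ratio equally. That shift takes up most of the ratios of Ndufb8, Ndufa6 and Ndufb5, so their distance from 0 depends on the scaling. Ndufb9 stayed at 0.08 or more in every setting. Over all 82 genes, 29, 27 and 27 ratios exceeded 2 technical SD of a ratio of single spots (35.4%, 32.9% and 32.9%). Over all genes 55.6%, 58.1% and 62.0% did, and over genes at or above percentile 75 it was 41.8%, 47.6% and 48.4%. Probes add a further error: 23 other probes of 18 genes differed from the brightest probe by a median of 0.068, 0.11 and 0.11 in the 3 comparisons. The largest gaps were 0.27 for Ndufaf7 and 0.30 and 0.37 for Cox6c-ps1. For 40 of the 83 genes the RefSeq table lists a pseudogene or a -like copy, whose transcripts the probe may also read.

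**Figure D4:**
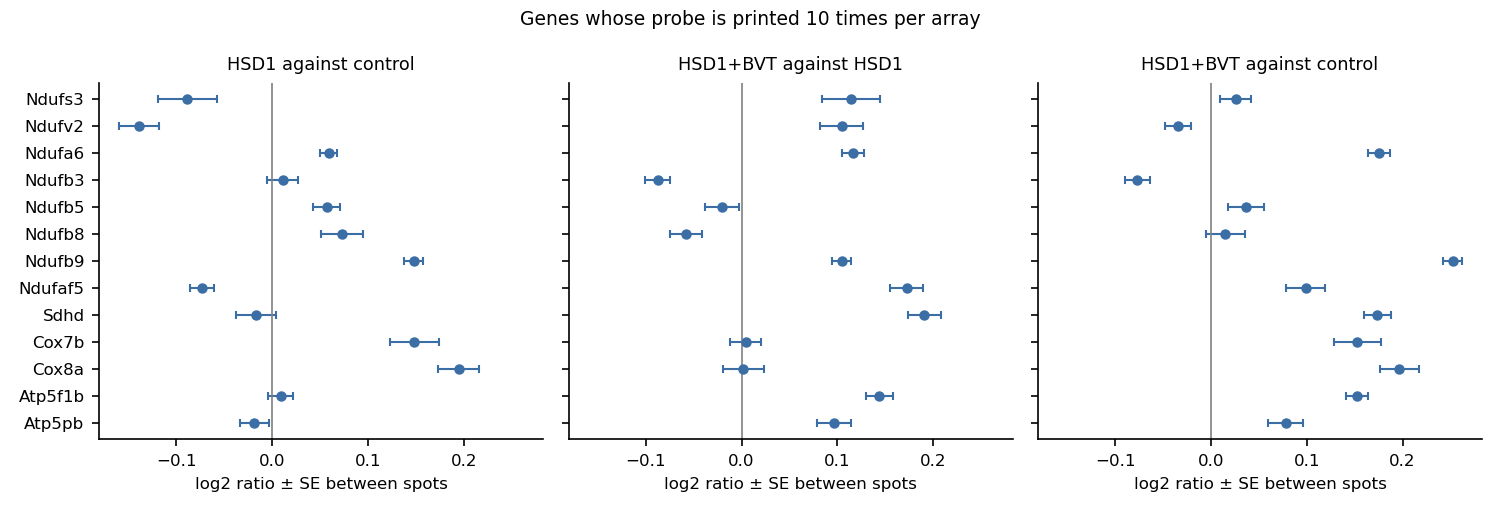
Log2 ratios of the 13 genes whose probe is printed 10 times per array, in the 3 comparisons. Bars are ± 1 SE between spots of the arrays and leave out the spread between cultures and the choice of scaling. Ndufv2 lies at -0.14 and Cox8a at 0.19 in HSD1 against control, and Ndufb9 at 0.25 in HSD1+BVT against control.

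Levels are comparable for 1 probe over the arrays and not between probes. On the control array the genes of complex I ran from -1.83 to 5.23, those of complex II from 2.90 to 4.52, of complex III from 1.03 to 5.58, of complex IV from 0.23 to 5.51 and of complex V from 1.43 to 5.87. On the HSD1 array these ranges were -2.06 to 5.28, 2.93 to 4.51, 1.39 to 5.72, 0.47 to 5.69 and 1.595 to 5.95. On the HSD1+BVT array they were -1.99 to 5.27, 2.90 to 4.56, 1.496 to 5.67, 0.55 to 5.64 and 1.53 to 5.83. No complex changed its range by more than 0.47 at either end, the largest shift being that of Uqcrq at the lower end of complex III.

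Neighbouring mitochondrial pathways were read from lists by name. Genes that assemble complexes but lie outside the rule had medians of -0.01, 0.10 and 0.12 (34 of 42 found), and none was 2-fold different. Citrate cycle enzymes, which feed the chain, had medians of -0.09, 0.15 and 0.06, with none of 13 at 2-fold. Proteins of the mitochondrial ribosome, which makes the subunits that mitochondrial DNA encodes, had medians of 0.02, 0.07 and 0.07, with 1 of 66 higher in HSD1 against control and 1 of 66 lower in HSD1+BVT against HSD1. Both calls are Mrpl47, named after its values were seen, whose levels of -3.95, -2.36 and -3.61 put HSD1 alone high, and under normexp its log2 ratios were 0.75 and -0.70, below 2-fold. Among 15 measured regulators of mitochondrial biogenesis the medians were 0.06, 0.01 and -0.03. The coactivator gene Ppargc1a had levels of -2.42 (control), -1.82 (HSD1) and -1.65 (HSD1+BVT). Both arrays with the vector were above control, by 1.52-fold and 1.71-fold, and the log2 ratios fell to 0.32 and 0.44 under normexp. These regulators stood nearer to control in HSD1 and HSD1+BVT: Esrra, an estrogen-related receptor, at 0.08 and 0.27, Nrf1 at -0.21 and -0.16, and Gabpa at 0.06 and -0.17. So did Tfam, which helps to transcribe and package mitochondrial DNA, at -0.12 and -0.0040, and Ppargc1b at -0.05 and 0.14. The value of Gabpa rests on leaving out 1 outlier spot of its 10 on the HSD1 array, with which its log2 ratio of HSD1 against control was 0.91, and Esrrg has no value because its spot was an outlier there. Ppard, a nuclear receptor of the PPAR family, was the regulator at 2-fold, named after its values were seen: its levels of -4.16, -3.99 and -3.01 made HSD1+BVT 2.23-fold higher than control, 1.99-fold under quantile normalization and 1.42-fold under normexp.

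Fatty acid oxidation genes and other PPAR targets differed from the respiratory chain with the inhibitor. This list was chosen with earlier results of these data known, so its values describe these arrays only. The median log2 ratio of its genes was 0.81 in HSD1+BVT against HSD1, 0.84 in HSD1+BVT against control and -0.01 in HSD1 against control. With the inhibitor 9 of 27 and 10 of 26 genes were at least 2-fold higher, against 1.49% and 2.94% of all genes. Under normexp the medians with the inhibitor were 0.63 and 0.64. There 5 of 27 and 5 of 26 genes were at 2-fold, against 27 of 11701 and 39 of 11718 of all genes. In the same comparisons the 82 chain and ATP synthase genes had medians of 0.01 and 0.07 and none at 2-fold. Etfdh, which passes electrons from fatty acid oxidation directly to coenzyme Q, had levels of 1.00, 0.79 and 1.89 and was 2.16-fold higher in HSD1+BVT than in HSD1, and 1.85-fold under normexp. Pdk4, the kinase that turns off pyruvate oxidation, had levels of -6.25, -5.81 and -3.97, highest with the inhibitor, and its log2 ratio against HSD1 was 1.84 as reported and 0.65 under normexp. The uncoupling protein genes Ucp2 (-2.96, -2.87 and -2.05) and Ucp3 (-5.78, -5.38 and -4.59) were highest in HSD1+BVT, as were the ATP/ADP carrier genes Slc25a4 (4.24, 4.61 and 5.02) and Slc25a5 (3.83, 3.90 and 4.22). Ucp3 was 2.29-fold above control as reported, 1.93-fold under quantile normalization and 1.14-fold under normexp, and the other 3 were under 2-fold. The hypoxia response list, of interest beside Cox4i2, had medians of 0.25, 0.20 and 0.32 over 19 genes, with 1 of them, Pdk1, at least 2-fold higher in HSD1 and in HSD1+BVT against control. Under normexp Pdk1 was 1.48-fold and 1.67-fold above control, below 2-fold. Between HSD1 and HSD1+BVT 16 of 19 hypoxia genes were above 0, against 51.2% of all genes, and none reached 2-fold. In HSD1+BVT against control 18 of 19 were above 0, against 58.2% of all genes. These counts are for the reported scaling alone, and a link of this list to Cox4i2 was not tested.

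**Figure D5:**
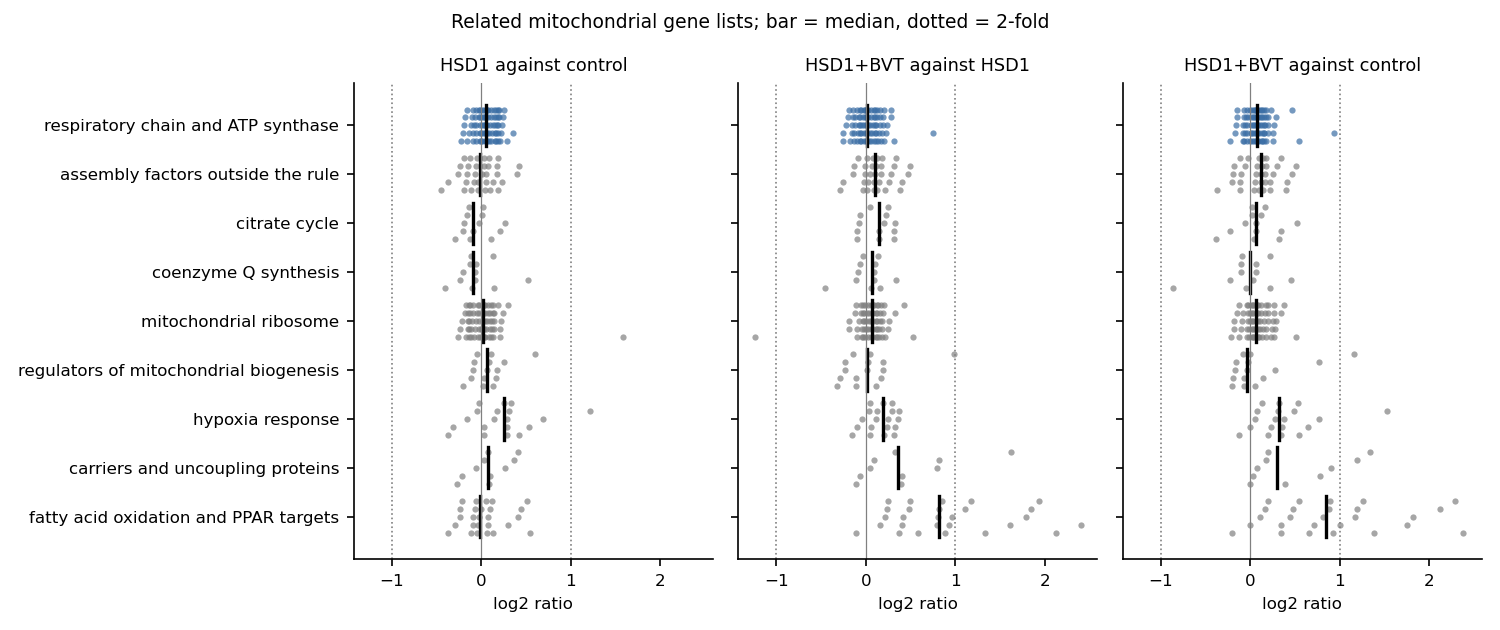
Log2 ratios of the 82 measured respiratory chain and ATP synthase genes (blue) and of related lists (grey), 1 point per gene measured on both arrays, with black bars at medians and dotted lines at 2-fold. The blue points stay inside the dotted lines in each panel, and the list of fatty acid oxidation genes and PPAR targets has its median at 0.81 and 0.84 in the panels that hold HSD1+BVT.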

How the data were processed

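Total RNA of 1 pool of cells per group was hybridised to 1 Agilent one-colour array per group (3 arrays). Scans were extracted with Agilent Feature Extraction 11.0.1.1, per the file headers and the submitters' processing notes. The authors deposited, for each spot, the processed signal and the median signal and background of the spot, all linear intensity values, and a table of log2 values for 30423 probes. That table correlates with the log2 processed signal at r = 0.999 on each array and has a median of 6.69 in each column. Which software made it is not stated in the labels or headers.

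Values are log2 of the processed intensity minus log2 of the array's percentile 75 over all non-control spots. Outlier spots (311 in control, 409 in HSD1, 363 in HSD1+BVT) were left out, then spots were averaged per probe. Of 30366 probes with a spot left, 18005 were named through RefSeq accessions (assembly GRCr8) without version. A gene was measured in a comparison when over 50% of the spots of its brightest probe were well above background on both arrays, and called at 2-fold. No test was run, because 1 array per group leaves no spread between cultures; the number of arrays limits the precision. The fold rule was tested on simulated data with the noise between spots alone, which cannot show how it fares against the spread between cultures.

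The genes, the related lists and the alternatives were chosen with earlier results of these data known. Genes are named by a rule: per comparison the 6 highest and 6 lowest ratios, the extremes of each complex, isoform pairs, and a fixed set of regulators and carriers with Hsd11b1, with exceptions said in place; genes shown for the precision of their 10 spots or as parts of a small complex go beyond it. Alternatives were array-median scaling, quantile and cyclic loess normalization and normexp with offset 50 (limma 3.58.1 in R 4.3.3), the deposited table, no filter, the mean of all probes, outlier spots kept and a 1.5-fold threshold. Added after seeing the data were normexp with the local background of extreme spots reset and the comparison with genes at or above percentile 75.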

Additional observations from a re-analysis of the deposited data

How the results depend on the processing

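No paired analysis was possible because each group has 1 array and no test was run. Over all alternatives, 81 medians and counts moved by less than the technical SD of a ratio or stayed within 1.5 times, and 9 did not. This tally says little, because a median this close to 0 can change sign within that limit. In HSD1+BVT against HSD1 the median went from 0.01 to -0.05 under quantile normalization. The counts at 2-fold were 0 as reported, and a 1.5-fold threshold cannot move a median. Without the filter on dim probes, 1 gene was 2-fold higher in HSD1 against control and 1 was 2-fold lower in HSD1+BVT against HSD1; it is Cox8c, which was not well above background on any array. At 1.5-fold, 1 gene was higher in HSD1+BVT against HSD1 and 1 against control, Cox4i2 in both. The median of HSD1+BVT against control was 0.07 as reported, -0.0300 under quantile normalization, -0.0157 under cyclic loess, -0.0102 under both normexp settings and -0.0313 in the authors' deposited table; the cause was not tested. Over all genes, 2-fold calls (higher and lower) in the 3 comparisons were 158 and 65, 174 and 68, and 344 and 88 as reported, 33 and 9, 27 and 2, and 39 and 6 under normexp, 62 and 33, 69 and 9, and 100 and 31 with repaired backgrounds, 117 and 92, 166 and 78, and 194 and 154 under quantile normalization, 113 and 93, 177 and 60, and 232 and 146 under cyclic loess, 113 and 90, 161 and 77, and 190 and 149 in the authors' deposited table, and 913 and 178, 518 and 1015, and 898 and 551 without the filter. Of single named genes, 1263 values moved by less than the technical SD and 267 by more. Differences under about 0.07 are within the technical SD of single spots, and differences between cultures could not be measured.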

Other observations

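Coenzyme Q synthesis had medians of -0.09, 0.07 and -0.01 over 12 genes in HSD1 against control, HSD1+BVT against HSD1 and HSD1+BVT against control, and no gene reached 2-fold. Its most extreme member was Coq8a, an atypical kinase of that pathway, with levels of -2.14 (control), -2.54 (HSD1) and -3.00 (HSD1+BVT), and HSD1+BVT was 1.81-fold below control. Among assembly factors outside the rule, the copper chaperone Cox17 had levels of 2.27, 2.46 and 2.77 and was 1.42-fold above control in HSD1+BVT. Atpaf1, an assembly factor of the F1 part of complex V, had levels of -3.57, -4.02 and -3.76, lowest in HSD1. Cs, the citrate synthase gene whose enzyme activity often serves as a measure of mitochondrial content, had levels of 3.07, 2.78 and 2.696, highest in control. Slc25a20, the carnitine carrier that brings fatty acids into mitochondria, had levels of -1.70, -1.98 and -0.36 and was 3.07-fold higher in HSD1+BVT than in HSD1.

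The markers of other cell types moved as follows, and their part in the results was not tested. Fibroblast markers had medians of -0.05, -0.09 and -0.17 and a summed level of 190.1, 190.4 and 182.0 times the percentile 75 signal in control, HSD1 and HSD1+BVT. Of 6 endothelial markers found, 5 were measured, with medians of 0.80, -0.30 and 0.51 and sums of 5.22, 8.06 and 9.63. Tie1 was not well above background on any array. Macrophage and leucocyte markers had medians of 0.05, 0.27 and 0.59, and their summed levels were 1.04, 1.098 and 1.29. Erythroid and platelet markers had medians of 0.20, 0.60 and 0.44, and their summed levels were 0.41, 0.34 and 0.55. Cardiomyocyte markers had medians of 0.14, 0.03 and 0.15, with 8, 6 and 6 of 10 above 0. They ran from -0.45 (Myl2) to 0.25 (Tnnt2), from -0.41 (Ryr2) to 0.32 (Myl2) and from -0.25 (Actn2) to 0.49 (Pln).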
